A study of Populus cathayana with 4 samples.

Results

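Kunitz-type protease inhibitors were followed through 7 rows of a leaf transcript table from Populus cathayana, a poplar with male and female trees. The rows were a given list of gene identifiers, chosen by the tag counts of these 4 libraries, and each carries the word Kunitz in the description of its best database hit. They are 7 of the 15 rows so described and of 19100 rows in all. Because those counts led to the choice, the levels and ratios of these rows are a description, and no test is attached to them.

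Kunitz-type inhibitors are small plant proteins that fit a loop into the active site of serine proteases such as trypsin and so block them. In leaves they are best known as wound-induced defence proteins that hamper digestion in chewing insects, and their synthesis is commonly switched on through the hormone jasmonate. Poplars carry a large family of them, whose members differ in the proteases they bind and in the tissue and stress that bring them out.

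The study asked how leaves of each sex differ between ambient and reduced solar UV-B. Rooted cuttings were grown in pots and kept for 100 days under ambient or decreased UV-B in a greenhouse, and the fourth fully expanded leaf was sampled. This gave 4 groups, ambient-UV-B females, low-UV-B females, ambient-UV-B males and low-UV-B males, where low UV-B stands for the reduced level. A group is 1 library made from RNA of 9 plants mixed together, although the labels also speak of 3 biological replicates. No value has a replicate error, and a ratio compares 2 pools without a check on the spread between plants or pools. The labels do not say from how many parent trees the cuttings came.

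Transcripts were counted by 3′ tag sequencing, in which each transcript yields 1 tag of 17 bp beside a restriction site, so that a level needs no correction for transcript length. Library totals, as the column headers give them, lay between 4.21 and 4.39 Mtags (1 Mtag is 1000000 tags). Values are tag counts or CPM, that is, tags per 1000000 tags of the library total, and the rows of the table held 14.4% to 17.2% of those totals, with the highest share in ambient-UV-B males. Intervals are exact 95% intervals that cover counting error only. They treat each tag as an independent molecule, and may be too narrow where tags were copied by PCR. No row of the table has a count of 1, so a listed 0 can stand for 0 or 1 tag. A 0 allows up to 3 tags, between 0.683 and 0.713 CPM, and a ratio against a 0 is given as a bound against 3 tags, which leaves out the counting error of the other library. Rows described as chlorophyll-binding or light-harvesting, the antenna of leaf mesophyll, summed to 6202 CPM in ambient-UV-B females, 7671 in low-UV-B females, 8149 in ambient-UV-B males and 7238 in low-UV-B males. In each library 15 to 17 of the 20 such rows were above 0, so all 4 carried leaf transcripts. Plastocyanin, an electron carrier of photosynthesis, was at 672 CPM in ambient-UV-B females, 687 in low-UV-B females, 465 in ambient-UV-B males and 281 in low-UV-B males, and so was higher in females, unlike the antenna under ambient UV-B. The 11 photosystem rows summed to 77.0, 93.3, 73.7 and 75.9 CPM in the same order. The part of these differences in the Kunitz values was not tested. No row was described as rubisco, the most familiar leaf enzyme. Many rows carry only a description such as predicted protein, so a search by words can miss a gene.

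In whole leaves, fewer cells of a type and less RNA per cell cannot be told apart. A tag of 17 bp can also match more than 1 member of a family of close copies, and how the authors assigned such tags is not given in the sources used here. Values of single members, above all those with the same description, are uncertain to that extent. Their sequences were not analysed here.

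The 7 rows together were far more abundant in male leaves, and most abundant in ambient-UV-B males. The 7 rows summed to 269 tags in ambient-UV-B females, or 62.2 CPM (interval 55.0 to 70.1). They summed to 222 tags in low-UV-B females, or 50.5 CPM (44.1 to 57.6). Males under ambient UV-B had 3265 tags, or 776 CPM (749.7 to 803), and low-UV-B males had 1085 tags, or 253 CPM (239 to 269). The summed level in males was thus 3.06-fold higher under ambient than under reduced UV-B (2.86 to 3.28), while in females the ratio was 1.23-fold (1.03 to 1.48). Over all 15 Kunitz rows the ratio was 2.97-fold in males (2.78 to 3.18). In females it was then 1.17-fold and within counting error (log2 interval -0.02 to 0.48). Under ambient UV-B the sum was 12.5-fold lower in females than in males (11.0 to 14.2), and under reduced UV-B it was 5.01-fold lower (4.34 to 5.82).

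These sums rest on a pair of rows. Potri.019G124400.2 and Potri.019G124600.1 together held 57.6% of the 7 rows' tags in ambient-UV-B females and 92.3% in low-UV-B females, and 93.3% in ambient-UV-B males and 78.2% in low-UV-B males. Without this pair, a setting chosen after seeing the data, the other 5 rows summed to 114 tags in ambient-UV-B females and 17 in low-UV-B females, 6.81-fold higher under ambient UV-B (4.07 to 12.1). In males the same 5 rows summed to 218 tags under ambient UV-B and 237 under reduced UV-B, a log2 ratio of -0.10 (-0.37 to 0.18). The direction of the summed difference between the sexes in their UV-B ratio therefore depends on the pair.

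**Figure D1:**
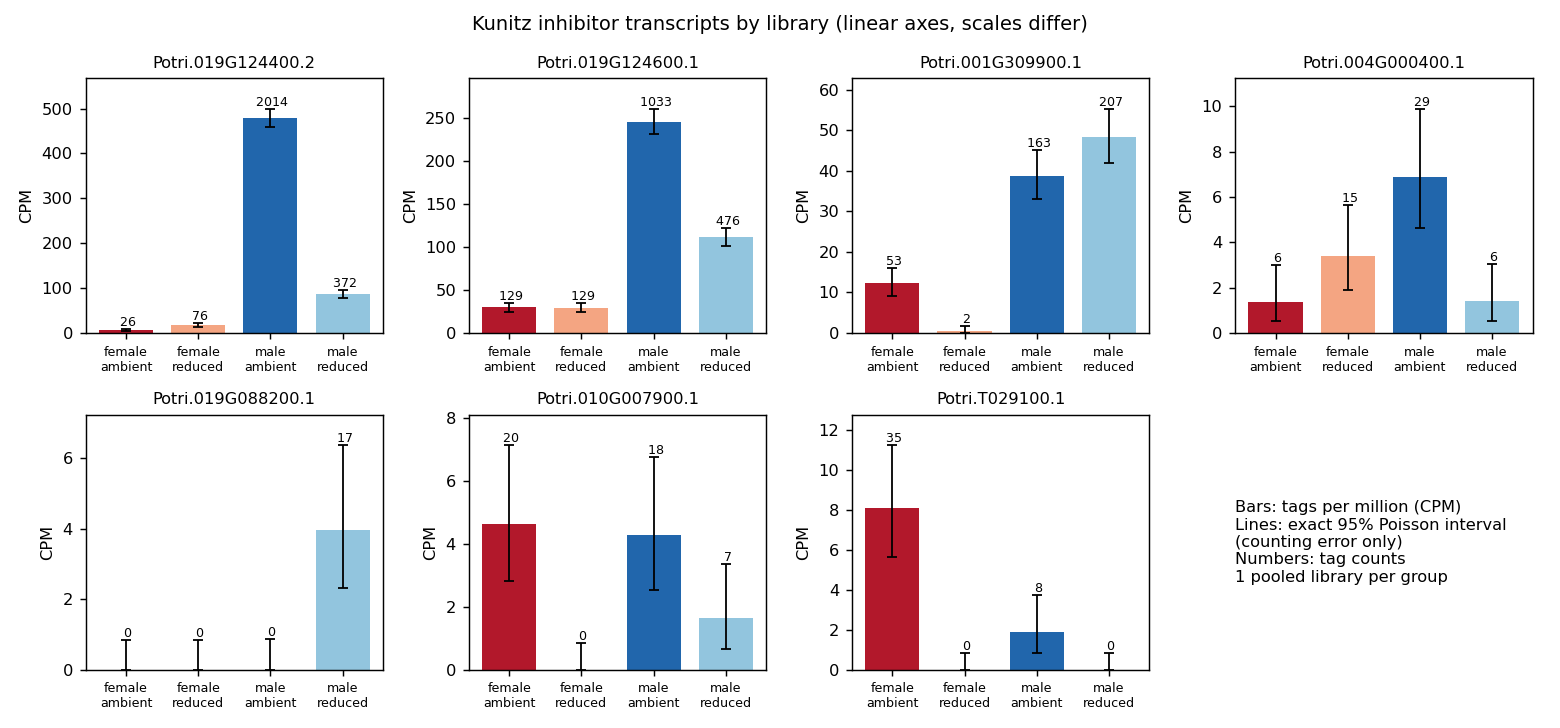
Level of each of the 7 Kunitz inhibitor rows in CPM (tags per 1000000 tags, linear axes that start at 0 and differ in scale) in the 4 libraries, with ambient left of reduced UV-B within each sex. Lines are exact 95% Poisson intervals and the numbers are tag counts; Potri.019G124400.2 stands at 479 CPM in ambient-UV-B males and at 6.01 CPM in ambient-UV-B females.

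Among the inhibitors described as trypsin inhibitors, Potri.019G124400.2 had the most tags. Its best hit is a Kunitz-type trypsin inhibitor of Populus nigra, and the table gives it the term for negative regulation of peptidase activity, as it does 6 of the 7 rows. It had 26 tags in ambient-UV-B females and 76 in low-UV-B females, against 2014 in ambient-UV-B males and 372 in low-UV-B males. In CPM these are 6.01 (interval 3.93 to 8.81) and 17.3 (13.6 to 21.7) in females, and 479 (458 to 500.1) and 86.9 (78.3 to 96.2) in males. The 4 intervals are separate, so the order of the levels, from ambient-UV-B males down to ambient-UV-B females, is wider than the counting error. In ambient-UV-B males it ranked 34 among the 19100 rows, and in ambient-UV-B females it ranked 3151.

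Its UV-B ratio ran in opposite directions in the sexes. The log2 ratio of ambient over reduced UV-B was -1.53 in females (-2.23 to -0.87) and 2.46 in males (2.30 to 2.63). The female ratio was 15.9-fold below the male one (interval 9.87 to 26.1). By the same counts the sex ratio was wider under ambient UV-B, where the level in females was 79.6-fold lower than in males (54.2 to 122), than under reduced UV-B, where it was 5.02-fold lower (3.91 to 6.51).

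Potri.019G124600.1, described as the Kunitz-type protease inhibitor KPI-C1, was as abundant at either UV-B level in females. It had 129 tags in ambient-UV-B females and 129 in low-UV-B females, against 1033 in ambient-UV-B males and 476 in low-UV-B males. The levels in females, 29.8 CPM (24.9 to 35.4) and 29.4 CPM (24.5 to 34.9), did not differ beyond counting error, and both lay below the male levels of 246 CPM (231 to 261) and 111 CPM (101 to 122). The log2 UV-B ratio was 0.02 in females (-0.34 to 0.39) and 1.14 in males (0.99 to 1.30).

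The pair thus changed places. Potri.019G124400.2 had 0.202 tags for each tag of Potri.019G124600.1 in ambient-UV-B females (0.127 to 0.309) and 0.589 in low-UV-B females (0.438 to 0.788). In males it had 1.95 under ambient UV-B (1.81 to 2.10) and 0.781 under reduced UV-B (0.681 to 0.897). Only in ambient-UV-B males was Potri.019G124400.2 the more abundant of the pair. This ratio is taken within a library and does not depend on the library total.

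A further trypsin inhibitor, Potri.001G309900.1, was higher under ambient UV-B in females, while its levels in males differed by less than 2-fold. It had 53 tags in ambient-UV-B females and 2 in low-UV-B females, against 163 in ambient-UV-B males and 207 in low-UV-B males. The levels were 12.2 CPM (9.18 to 16.0) and 0.46 CPM (0.06 to 1.64) in females, and 38.7 CPM (33.0 to 45.2) and 48.3 CPM (42.0 to 55.4) in males. Females under reduced UV-B stood apart at the bottom, while the male intervals overlapped.

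The log2 UV-B ratio of Potri.001G309900.1 was 4.75 in females, with a wide interval (2.83 to 7.83) because the lower library had 2 tags, and -0.32 in males (-0.62 to -0.02). Its sex ratio was smaller under ambient UV-B, where females were 3.16-fold lower than males (2.31 to 4.40), against 106-fold lower under reduced UV-B (29.0 to 882). Potri.019G124400.2 thus had its wider gap between the sexes under ambient UV-B and Potri.001G309900.1 under reduced UV-B.

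**Figure D2:**
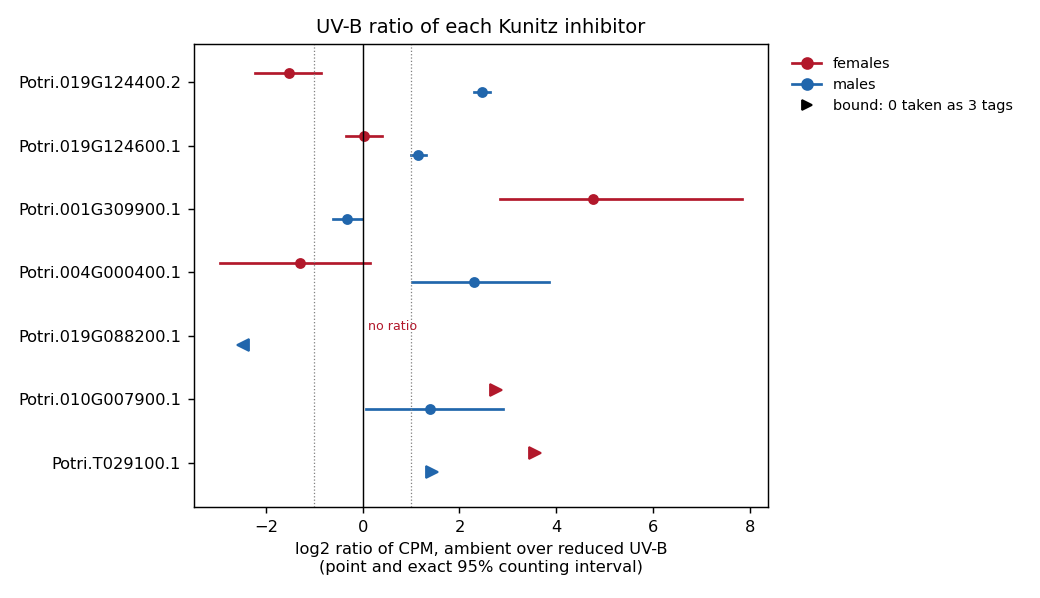
Log2 ratio of CPM, ambient over reduced UV-B, for each row in females (upper mark of each pair) and males (lower mark), with exact 95% counting intervals; triangles are bounds with a 0 taken as 3 tags, and dotted lines mark 2-fold. Potri.019G124400.2 lies at -1.53 in females and 2.46 in males, and Potri.001G309900.1 at 4.75 in females and -0.32 in males.

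The remaining trypsin inhibitors were scarce. Potri.004G000400.1 had 6 tags in ambient-UV-B females and 15 in low-UV-B females, against 29 in ambient-UV-B males and 6 in low-UV-B males. Males under ambient UV-B were highest at 6.89 CPM (4.62 to 9.90), but that interval overlaps the one of low-UV-B females, 3.41 CPM (1.91 to 5.63). The log2 UV-B ratio was -1.30 in females (-2.95 to 0.15) and 2.30 in males (1.01 to 3.86), so that the female ratio did not exceed counting error.

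Potri.019G088200.1 was listed at 0 in ambient-UV-B females, in low-UV-B females and in ambient-UV-B males, and had 17 tags in low-UV-B males. Its level there was 3.97 CPM (2.31 to 6.36), which makes it at least 5.57-fold lower in males under ambient than under reduced UV-B. The exact interval of that log2 ratio, with the 0 as counted, lay below -2.02. It was the only 1 of the 7 rows that was at least 2-fold lower under ambient UV-B in males.

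The A-type inhibitors, named so after their best hits, were those of the 7 rows with more tags under ambient UV-B in both sexes. Potri.010G007900.1, described as KPI-A5, had 20 tags in ambient-UV-B females and 0 in low-UV-B females, against 18 in ambient-UV-B males and 7 in low-UV-B males. It was at least 6.77-fold higher under ambient UV-B in females (log2 interval above 2.33) and 2.62-fold higher in males (1.04 to 7.41). Under ambient UV-B its levels in females and males, 4.62 CPM (2.82 to 7.14) and 4.28 CPM (2.54 to 6.76), did not differ beyond counting error. The interval of low-UV-B males, 1.63 CPM (0.66 to 3.37), overlapped that of ambient-UV-B males.

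Potri.T029100.1, described as KPI-A2.2, had 35 tags in ambient-UV-B females and 0 in low-UV-B females, against 8 in ambient-UV-B males and 0 in low-UV-B males. It was listed at 0 in both libraries under reduced UV-B, and was at least 11.8-fold higher under ambient UV-B in females and at least 2.71-fold higher in males, each against 3 tags. The exact intervals of the log2 ratios, with the 0 as counted, lay above 3.19 in females and above 0.80 in males. It was the one member that was more abundant in females than in males beyond counting error, by 4.26-fold under ambient UV-B (1.94 to 10.6).

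The make-up of the family also differed between libraries. In ambient-UV-B females, KPI-C1 held 48.0% of the 7 rows' tags (interval 41.9% to 54.1%), Potri.001G309900.1 held 19.7% (15.1% to 25.0%), Potri.T029100.1 held 13.0% (9.23% to 17.6%) and Potri.019G124400.2 held 9.67% (6.41% to 13.8%). In low-UV-B females, KPI-C1 held 58.1% (51.3% to 64.7%) and Potri.019G124400.2 held 34.2% (28.0% to 40.9%), and 3 of the 7 rows were at 0, which allows each a share of up to 1.35% at 3 tags, or 1.65% as the exact upper limit. In ambient-UV-B males, Potri.019G124400.2 alone held 61.7% (60.0% to 63.4%). In low-UV-B males, KPI-C1 held 43.9% (40.9% to 46.9%), Potri.019G124400.2 held 34.3% (31.5% to 37.2%) and Potri.001G309900.1 held 19.1% (16.8% to 21.5%).

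**Figure D3:**
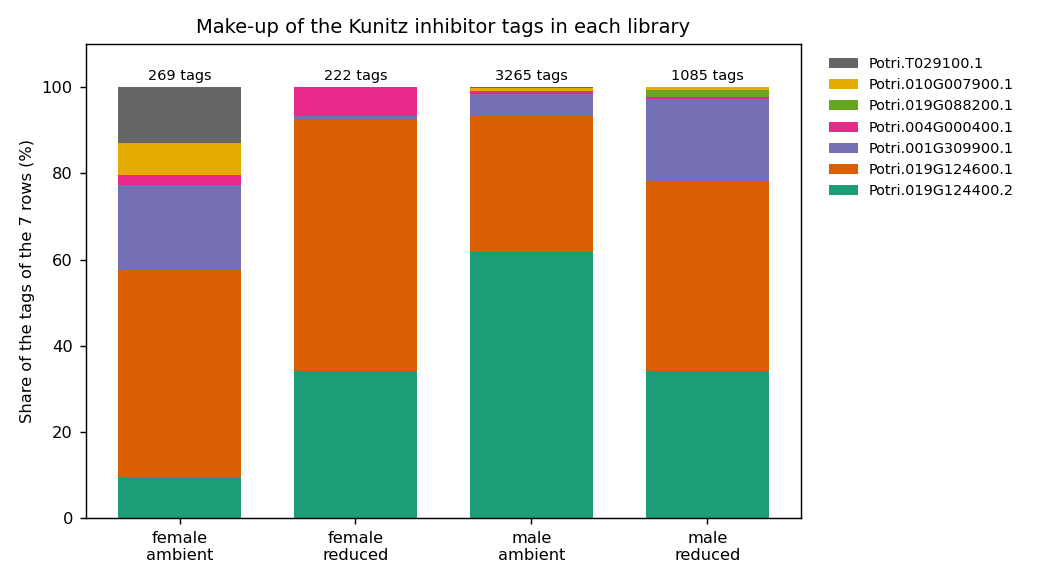
Share of the 7 rows' tags held by each row, in percent, in the 4 libraries, with the number of tags above each bar. Potri.019G124400.2 holds 9.67% in ambient-UV-B females and 61.7% in ambient-UV-B males.

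Read as counts, 5 of the 7 rows were higher in ambient-UV-B males and 1 was lower, where a row was counted if the ratio was at least 2-fold and its interval left out 1. Among all 10741 rows with at least 10 tags over the 4 libraries, 8.06% were higher and 5.76% lower by that rule. In females 3 of the 7 were higher and 1 lower, against 6.4% and 6.73% of all rows. All 7 rows passed the minimum of 10 tags, but 3 of them had 100 or more. Since these ratios were known when the rows were listed, nothing is read from the gap to the background. With trimmed mean (TMM) factors from edgeR, which moved the median log2 ratio of all rows in males by -0.21, 3 of the 7 were higher in males: KPI-C1 (log2 ratio 0.93) and Potri.010G007900.1 no longer counted. With these factors 512 of all rows were higher and 910 lower in males, against 866 and 619 with the header totals.

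Under ambient UV-B, 4 of the 7 rows were lower in females than in males and 1 was higher. Under reduced UV-B 5 were lower in females and 0 higher, and the 2.44-fold ratio of Potri.004G000400.1 was within counting error. The shares over all rows were 16.4% lower and 9.97% higher under ambient UV-B, and 13.9% lower and 11.6% higher under reduced UV-B. With TMM factors the excess of lower rows under ambient UV-B was gone, since 1390 rows were lower and 1416 higher, against 1766 and 1071 with the header totals. The 2 sex comparisons and the 2 UV-B comparisons draw on the same 4 libraries and are not independent of each other.

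**Figure D4:**
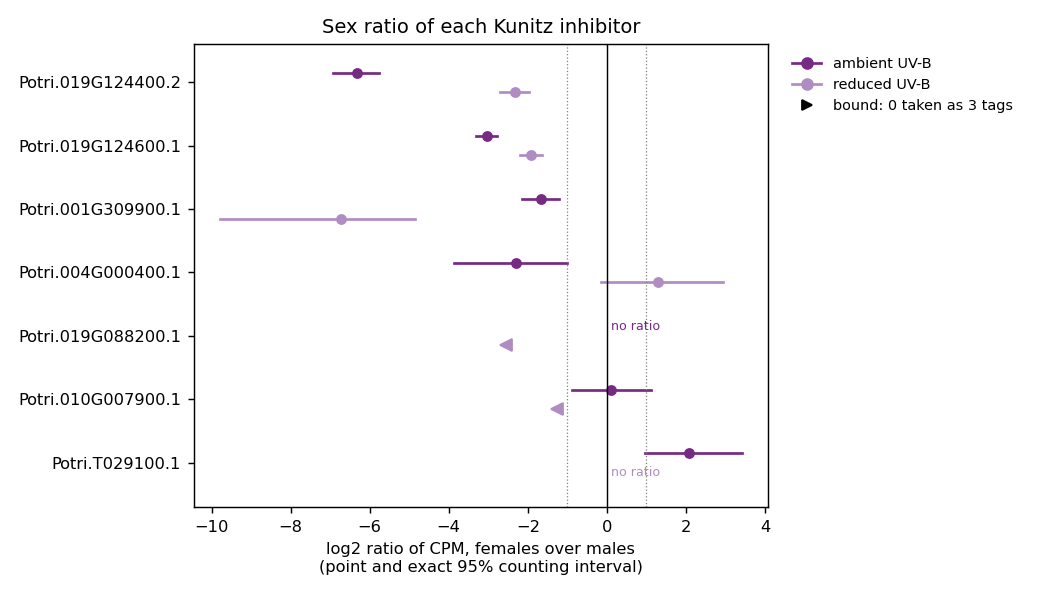
Log2 ratio of CPM, females over males, for each row under ambient UV-B (upper mark of each pair) and reduced UV-B (lower mark), with exact 95% counting intervals; triangles are bounds with a 0 taken as 3 tags. Potri.T029100.1 under ambient UV-B lies at 2.09 and Potri.019G124400.2 under ambient UV-B at -6.32.

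For the difference between the sexes in the UV-B ratio itself, 2 rows had the higher ratio in females, Potri.001G309900.1 and Potri.010G007900.1. In 3 rows it was lower in females, Potri.019G124400.2, Potri.019G124600.1 and Potri.004G000400.1. Over all rows 5.15% had a higher and 9.14% a lower ratio in females by the same rule. That imbalance also depended on the scaling, with 553 higher and 982 lower rows with the header totals and 744 higher and 705 lower with TMM factors. The other two rows gave no ratio of ratios, because their zeros fell on both sides of it or left 1 sex without tags. The interval for Potri.001G309900.1, a 33.6-fold higher ratio in females, ran from 8.57 to 289. For Potri.019G124600.1 the ratio was 2.18-fold lower in females (1.65 to 2.87), and with TMM factors it was no longer past 2-fold.

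The pattern of Potri.019G124400.2, at least 2-fold higher in males and at least 2-fold lower in females under ambient UV-B than under reduced UV-B with both intervals leaving out 1, was shared by 15 of the 3478 rows with at least 100 tags, itself included, or 0.431% of them. Higher in both sexes by the same rule were 0.652% of the rows with at least 10 tags, among them KPI-A5 and KPI-A2.2. With TMM factors KPI-A5 no longer counted in males. For KPI-A2.2 the male ratio rests on 8 tags against 0, and its log2 interval began at 0.80, under 2-fold.

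**Figure D5:**
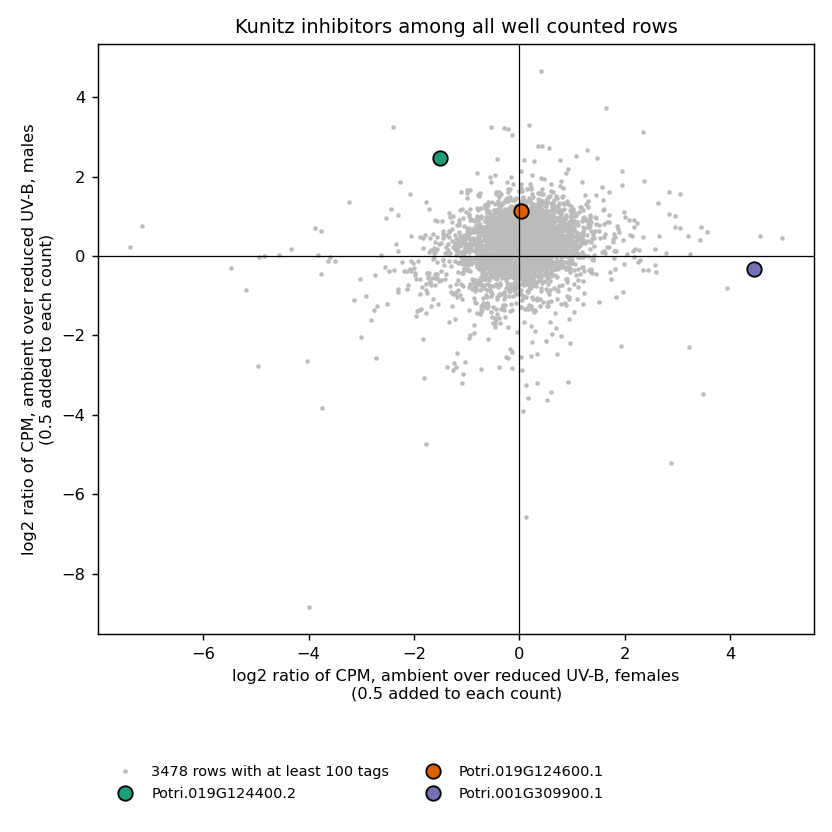
Log2 UV-B ratio in females (x axis) and in males (y axis), each with 0.5 added to every count, for the 3478 rows with at least 100 tags (grey) and the 3 Kunitz rows among them (coloured). Potri.019G124400.2 lies at the upper left, Potri.019G124600.1 above the centre and Potri.001G309900.1 at the far right near the horizontal line.

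The other 8 rows described as Kunitz inhibitors held few tags, 2 to 50 each over the 4 libraries, and the 7 listed rows held 17 to 2488. They summed to 16 tags in ambient-UV-B females and 25 in low-UV-B females, and to 42 in ambient-UV-B males and 47 in low-UV-B males. Their summed log2 UV-B ratio was -0.62 in females (-1.62 to 0.34) and -0.14 in males (-0.77 to 0.49), within counting error in both sexes. Their sum was lower in females than in males, by 2.70-fold under ambient UV-B (1.49 to 5.14) and 1.93-fold under reduced UV-B (1.16 to 3.27).

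Of these, 3 had at least 10 tags. Potri.019G121800.1, described like Potri.019G124600.1 as KPI-C1, had 8 and 4 tags in females under ambient and reduced UV-B, against 13 and 25 in males under ambient and reduced UV-B. KPI-D1.2, Potri.004G067800.1, had 2 and 2 tags in females and 22 and 6 in males, in the same order of UV-B levels, and was 3.73-fold higher under ambient UV-B in males (1.47 to 11.2). KPI-D2.3, Potri.004G067900.1, had 4 and 7 tags in females and 4 and 8 in males, with no difference beyond counting error. The remaining 5 rows had at most 7 tags each. Among them Potri.017G153200.1 went against the sum, with 7 tags in low-UV-B females and 0 in low-UV-B males.

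Other genes of wounding and defence were taken from word lists on the descriptions. No row was described as a protease inhibitor of another family. Of the 3478 rows with at least 100 tags, 587 had an informative description, so such inhibitors may be present without the name. The 7 tested wound defence rows were polyphenol oxidases, chitinases, a thaumatin and a storage protein. In females 0 were higher and 1 lower under ambient UV-B, against 6.4% and 6.73% of all rows. In males 1 was higher and 0 lower, against 8.06% and 5.76%. Median log2 ratios of the 7 rows were -0.56 in females and -0.05 in males with 0.5 added to each count. Over all rows they were 0.02 and 0.11. With zeros at 3 tags the medians of the 7 rows were -0.39 and -0.06. Under ambient UV-B, 6 of these 7 rows were lower in females than in males and 0 were higher, and under reduced UV-B 4 were lower and 1 was higher. Of all rows, 16.4% were lower and 9.97% higher in females under ambient UV-B, and 13.9% and 11.6% under reduced UV-B.

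A polyphenol oxidase, Potri.011G108300.1, was the row that counted in both sexes. Such enzymes turn phenolics of damaged tissue into quinones that bind proteins. It had 5 tags in ambient-UV-B females and 29 in low-UV-B females, against 126 in ambient-UV-B males and 13 in low-UV-B males. Its log2 UV-B ratio was -2.51 in females (-4.24 to -1.13) and 3.30 in males (2.48 to 4.25), so that it had the same directions as Potri.019G124400.2.

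The more abundant polyphenol oxidase Potri.001G388900.1 went another way. It had 82 and 123 tags in females under ambient and reduced UV-B, against 340 and 626 in males under ambient and reduced UV-B, with log2 UV-B ratios of -0.56 in females (-0.98 to -0.15) and -0.86 in males (-1.05 to -0.66). The pathogenesis-related thaumatin Potri.001G102400.1 had 147 and 92 tags in females and 869 and 716 in males in the same order, with log2 ratios of 0.70 in females (0.31 to 1.09) and 0.30 in males (0.16 to 0.45). Neither differed 2-fold with UV-B, while both were at least 4-fold lower in females than in males.

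Jasmonate synthesis was represented by 3 tested rows, none of which differed 2-fold with UV-B in either sex. Of all rows, 25.2% did so in females and 25.3% in males, by the ratio alone. The median log2 ratio of the 3 rows was -0.33 in females and 0.60 in males. Allene oxide synthase Potri.002G130700.1, which makes the jasmonate precursor, had 21 and 27 tags in females under ambient and reduced UV-B, against 180 and 109 in males under ambient and reduced UV-B. Its log2 UV-B ratio was -0.34 in females (-1.24 to 0.54) and 0.75 in males (0.40 to 1.11). A second such gene, Potri.014G038700.1, had 64 and 77 tags in females and 76 and 51 in males in that order.

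Of 3 tested protease rows, 1 was lower under ambient UV-B in females, against 6.73% of all rows. In males 0 differed in either direction, against 13.8% of all rows. The lower row was subtilisin-like protease Potri.001G167300.1, with 14 and 42 tags in females under ambient and reduced UV-B, against 31 and 49 in males. Its log2 UV-B ratio was -1.56 in females (-2.55 to -0.66) and -0.64 in males (-1.33 to 0.04). The more abundant subtilisin-like protease Potri.003G067000.1 had 207 and 367 tags in females under ambient and reduced UV-B, against 323 and 357 in males. Its log2 UV-B ratio was -0.80 in females (-1.06 to -0.55) and -0.12 in males (-0.34 to 0.10), under 2-fold in both sexes.

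The likeness of whole patterns was measured over the 4 libraries as the Euclidean distance between log2 levels centred on their mean, among 587 rows with an informative description and at least 100 tags. Nearest to KPI-C1 Potri.019G124600.1 were an AP2/ERF transcription factor, Potri.002G039100.1 (distance 0.21), allene oxide synthase Potri.002G130700.1 (0.39) and a second AP2/ERF factor, Potri.003G081200.1 (0.54). Nearest to Potri.019G124400.2 were a row described as 1-aminocyclopropane-1-carboxylate, Potri.001G099400.2 (1.42), a GT8 glycosyltransferase, Potri.008G192600.1 (1.88), and a ZIP metal transporter, Potri.001G366100.1 (1.89). KPI-C1 itself was number 10 for Potri.019G124400.2, at a distance of 2.32, while Potri.019G124400.2 was number 218 of 587 for KPI-C1. With 4 libraries, these distances describe patterns and are no measure of shared regulation.

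Markers of other leaf tissues differed between the groups as well. Rows described as laccases, enzymes of lignified walls, summed to 4.86 CPM in ambient-UV-B females and 16.2 in low-UV-B females, against 22.8 in ambient-UV-B males and 33.2 in low-UV-B males, with 6 to 8 of 9 rows above 0. Cellulose synthase rows summed to 11.3 and 44.6 CPM in females under ambient and reduced UV-B, against 39.2 and 55.6 in males, with 4 to 5 of 5 rows above 0. Fasciclin-like rows summed to 5.32 and 17.1 CPM in females and 13.8 and 22.7 in males, and ketoacyl-CoA synthases, which make surface waxes, to 8.32 and 19.1 CPM in females and 11.9 and 23.8 in males. In these lists 3 to 7 of 9 and 7 to 8 of 11 rows were above 0. The 2 sucrose transporter rows, of the phloem, summed to at most 0.713 CPM, and both were at 0 under reduced UV-B. A listed 0 allows about as much, so no difference is read from these rows. The part of such differences in leaf make-up in the Kunitz values was not tested.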

How the data were processed

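Leaf RNA of 9 plants per group was pooled, and 17 bp tags beside NlaIII sites were counted with the Illumina pipeline, per the labels' protocols. The deposited table holds raw tag counts per gene, with library totals in the column headers, and a second set of columns. There the deposited values, though headed TPM, equal CPM, since counts over the header total matched 100% of them within 0.005. How tags were assigned to genes, and on which genome build, is not given in the sources used here. Each library ran in its own lane, so lane and group cannot be told apart.

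The counts were scaled by the header totals. Ratios carry exact 95% conditional binomial intervals, and ratios of ratios exact noncentral hypergeometric ones, computed for every row with Python 3.11.15, scipy 1.17.1 and R 4.3.3. With 1 library per group, ratios within a sex or a UV-B level and their difference leave no residual degree of freedom for edgeR or DESeq2. An additive model of sex and UV-B over the 4 libraries would leave 1 and was not run, since it takes the UV-B ratio as equal in the sexes. edgeR 4.0.16 gave TMM factors and DESeq2 1.42.0 size factors as alternatives. The background is the 10741 rows with at least 10 counts. Intervals were tried on simulated counts with counting error alone, which is what the intervals assume. This checks the computation and not PCR copies or the spread between pools. The members, lists and rules were chosen with earlier results of these data known. Named were all Kunitz rows, up to 2 rows with at least 50 counts per list and UV-B comparison, and the 3 nearest patterns for each of the 2 most abundant members. The protease Potri.001G167300.1, below that minimum, was also named because it met the 2-fold rule in females. A word pattern for jasmonate regulators (TIFY) also took potassium channels, which were left out after they were seen.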

Additional observations from a re-analysis of the deposited data

Results flagged for a closer look

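In 3 Kunitz inhibitors the UV-B ratio ran in opposite directions in the sexes by its point values. Only for Potri.019G124400.2 were both ratios at least 2-fold with intervals that left out 1. With 1 library per group the difference between the sexes was not tested, and the intervals cover counting error only. The log2 ratio in females minus that in males was -3.99 for Potri.019G124400.2 (interval -4.71 to -3.30). It was 5.07 for Potri.001G309900.1 (3.10 to 8.18), which rests on 2 tags in females under reduced UV-B. The log2 ratio of that row in males, -0.32 (-0.62 to -0.02), was under 2-fold. The difference was -3.60 for Potri.004G000400.1 (-5.76 to -1.51), whose libraries held 6 to 29 tags and whose ratio in females did not exceed counting error.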

How the results depend on the processing

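No paired analysis was possible because the groups have 1 library each and share fewer than 2 replicate numbers. A fit of UV-B with sex as the block was not run. The number of the 7 rows counted as higher under ambient UV-B in males, 5 with header totals, was 3 with TMM factors, with DESeq2 size factors and with the sums of the table's rows as totals. It was 3 with intervals at an error rate of 0.001 in place of 0.05, and 2 at 4-fold. Of the 3 Kunitz rows with at least 100 counts, 2 were higher and 0 lower in males, and 1 was higher and 1 lower in females. Over all 3478 rows with at least 100 counts, 10.1% were higher and 4.51% lower in males. In females 6.41% were higher and 6.58% lower. At 4-fold, 0 of the 7 Kunitz rows were lower in females. Between the sexes, the 3 Kunitz rows gave 0 higher and 3 lower in females under ambient UV-B, against 9.11% and 20.8% of the 3478 rows. Under reduced UV-B they gave 3 lower, against 15.8%. Of the 7 Kunitz rows, 4-fold also gave 3 lower under reduced UV-B. The rows with the higher UV-B ratio in females, 2, became 1 with at least 100 counts, with the wider intervals and at 4-fold. Over all rows, 553 became 222, 172 and 305 in the same order.

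The rows with the lower UV-B ratio in females, 3, became 2 with each of the 3 other scalings and at 4-fold, a change within 1.5 times. Over all rows, 982 became 705 with TMM factors, 686 with size factors, 617 with the sums of the table's rows and 382 at 4-fold. The summed log2 UV-B ratio in males, 1.61, was 1.40 with TMM factors, 1.42 with size factors, 1.41 with the sums of the table's rows and 0.84 without Potri.019G124400.2. Without Potri.019G124400.2 and Potri.019G124600.1 it was -0.10. In females, 0.30 became 0.76 and 2.77 without these rows in the same order. Under ambient UV-B the summed log2 ratio of females over males, -3.64, was -3.45 with TMM factors, -3.45 with size factors, -3.39 with the sums of the table's rows, -2.40 without Potri.019G124400.2 and -0.98 without both rows. Under reduced UV-B it was -2.33, and -3.84 without both. The summed difference between the sexes in the UV-B ratio, -1.32, was -0.08 without Potri.019G124400.2 and 2.86 without both. The cause of these changes was not tested. TMM and size factors for the sums, and leaving out both rows, were chosen after seeing the data.

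Over all rows, the split in males of 866 higher and 619 lower became 512 and 910 with TMM factors, 523 and 902 with size factors, and 513 and 905 with the sums of the table's rows. Depth limits the 4 rows with fewer than 100 counts, where a 2.44-fold ratio (15 against 6 tags of Potri.004G000400.1) was within counting error.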

Other observations

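By the naming of these identifiers, which begin with the chromosome, 3 of the 7 rows and 6 of the 15 Kunitz rows carry the number of chromosome 19. Of all 10741 tested rows, 284 carry it. Positions were not looked up. The next shares follow the 2-fold ratio alone, without the interval. Among the 280 tested rows with that number that are not Kunitz rows, 22.5% were lower in females than in males under ambient UV-B. Under reduced UV-B 21.8% were lower, against 23.5% and 21.0% of all rows. Of the rows with neighbouring identifiers, 4 without a named description had at least 100 counts. Their log2 ratios of females over males ran from -0.73 (Potri.019G123500.1) to 0.47 (Potri.019G122000.1) under ambient UV-B, where Potri.019G124400.2 had -6.32 and Potri.019G124600.1 had -3.04. Under reduced UV-B they ran from -1.17 (Potri.019G124100.1, interval -1.71 to -0.65) to 0.37 (Potri.019G124000.1), where Potri.019G124400.2 had -2.33 and Potri.019G124600.1 had -1.92.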
